A study of Mus musculus with 12 samples.

Results

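Of 74401 regions of the mouse genome that carried a peak of 5-hydroxymethylcytosine (5hmC) in at least 1 of 6 hippocampal libraries, 29724 lay between genes. In 263 of these, all 3 peak lists of stressed mice had a peak and none of the 3 control lists did. These 263 stress-only intergenic regions are 0.885% of the intergenic regions, and the 847 stress-only regions at any place are 1.14% of all regions. Peaks of the 6 lists on chromosomes 1 to 19 were pooled, and peaks sharing at least 1 bp were merged into regions. A region counted as intergenic when it overlapped no body of the 33262 RefSeq transcripts in the RNA tables and no base within 1 kb of their start sites. Presence or absence of a peak in the 6 lists chose the regions, so their presence in stress and absence in control is not a finding.

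All mice were male C57BL/6. The stress group held 6 mice that were restrained once for 30 min in a conical vial, from 2 h after lights on, and then spent 1 h alone in a clean cage before tissue was taken. The control group held 5 naive mice that were taken from their cage when the restraint of the others began, so control tissue was taken earlier in the day. Time of day, handling and the new cage cannot be told apart from restraint here. Both groups received brief isoflurane. The whole hippocampus was taken by micropunch, and DNA was pooled from at most 2 mice per library, with 1 library from 1 mouse. Age is tagged as postnatal day 28 but stated as 7 weeks in the protocol. RNA of the same pools was summarised as 1 table per group, so RNA differences have no replicate check.

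5hmC arises when TET enzymes oxidise methylated cytosine, and it is abundant in neurons. Away from genes it is often found at enhancers, stretches of DNA that bind transcription factors and act on promoters over a distance, and at sites where methylation is being removed. The enhancers of a gene can lie far from it and beyond its neighbours, so the nearest gene is a label of position and not a target. The method used here tags 5hmC with a modified glucose, captures the tagged fragments and reports where they pile up. It does not measure the level at single cytosines.

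The number of regions depended on the length of the lists. Stress lists held 15177, 27784 and 31636 autosomal peaks covering 16.6, 33.6 and 38.1 Mb, and control lists held 17176, 27897 and 16303 peaks covering 16.8, 30.1 and 16.7 Mb. Stress libraries 2 and 3 and control library 2 were thus long, and the other 3 were short. The reverse pattern, a peak in 3 control lists and no stress list, was found in 110 intergenic regions (0.37%). With lists shortened by score to the same number of peaks, the counts were 160 stress-only and 103 control-only. With lists shortened to the same covered length, they were 117 and 127, so the excess of stress-only regions turned into a small deficit. Between the shortened lists, the direction of this difference in counts was thus not stable. Leaving out control library 1 or control library 3 gave 344 against 469 and 351 against 482 regions, and leaving out stress library 1 gave 1320 against 143. Leaving out a library lowers the number of lists that its own group must supply. Both counts then follow uneven rules and cannot be compared for direction.

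Most intergenic regions were seen in few lists. A peak in a single stress list and in no control list was found in 9318 regions, and in exactly 2 stress lists and no control list in 1731. Another 483 regions missed the rule by 1 control list, and in 314 of them that list was the long one of control library 2. Control libraries 1 and 3 supplied 81 and 88 of these. Peaks in all 6 lists were found in 397 intergenic regions.

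Each of the 263 regions held exactly 1 peak from each stress list. Their median length was 1211 bp (95% order-statistic interval 1163 to 1264), with a range from 610 to 3813 bp. The median was 954 bp (950 to 957) for all intergenic regions, 1054 bp for control-only ones and 1465 bp for those in all 6 lists. Length is tied to the rule, because a region merged from peaks of more lists is at least as long as each of them. The single peaks in the 263 regions had median lengths of 946, 1043 and 1044 bp in stress libraries 1, 2 and 3. All autosomal peaks of these lists had medians of 976, 1062 and 1046 bp. The 3 peaks of a region mostly lay on top of each other. A median of 69.9% of a region's bases was under the peaks of all 3 stress lists, and in 222 regions it was at least 50%. In 3 regions, near Plekhb2, Usp24 and 2700038G22Rik, no base was shared by all 3, and they were joined only through an overlapping neighbour. The longest region, 3813 bp at chr1:138554828-138558640 and 21.3 kb upstream of Gm19705, took its full length from the peak of stress library 2, and the peaks of libraries 1 and 3 covered 1326 and 2160 bp. All coordinates are of build mm9.

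The peaks behind the regions were of middling strength. The score that the authors gave each peak can be ranked within a list only, and is given here as a percentile of that list. Median percentiles were 53.4, 56.6 and 61.8 in stress libraries 1, 2 and 3. The 397 regions in all 6 lists had medians of 80.7, 87.4 and 86.6 in the same libraries. The 483 regions with 1 control list lay between, at 60.6, 70.4 and 73.0. Regions with peaks in 2 stress and no control lists had lower medians, at 42.1, 46.7 and 50.9. Control-only regions had medians of 51.4, 58.4 and 60.3 in control libraries 1, 2 and 3, close to those of the stress-only regions in their own lists. Medians were thus higher for sets found in more lists. Absence of a peak from a list is not absence of 5hmC. Ranks also varied from list to list. Across the 263 regions, Spearman's rho of the percentiles was 0.17 between stress libraries 1 and 2, 0.14 between 1 and 3, and 0.071 between 2 and 3, against 0.36, 0.35 and 0.46 across the regions in all 6 lists. These are descriptions over regions of the same libraries. The lowest of the 3 percentiles had a median of 26.3, and 54 regions were in the lowest 10% of at least 1 stress list.

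**Figure D1:**
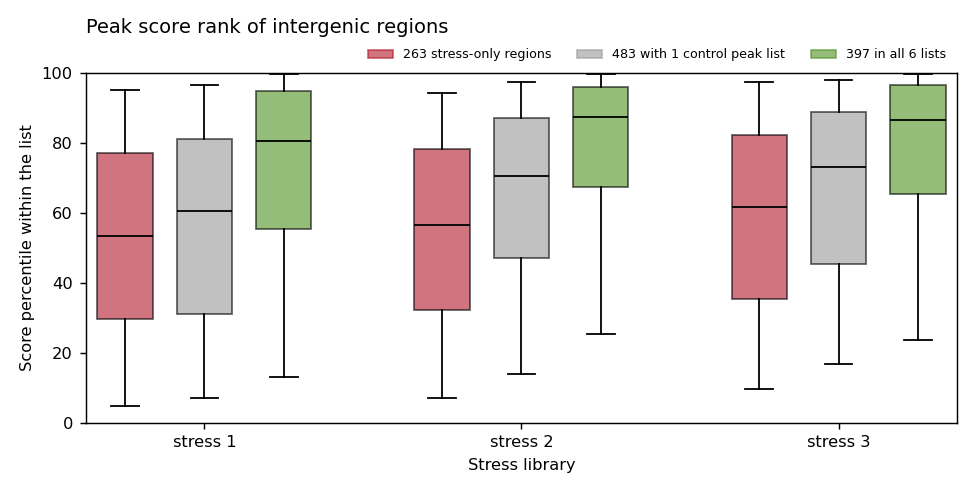
Score percentile of peaks within each stress list (vertical axis, 0 to 100) for 3 sets of intergenic regions, with boxes from the 25th to the 75th percentile, a line at the median and whiskers from the 5th to the 95th percentile. Stress-only regions have medians of 53.4, 56.6 and 61.8, below the medians of both other sets in every stress library.

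Only 15 of the 263 regions (5.70%) were in the top 25% of all 3 stress lists, against 135 of 397 (34.0%) for regions in all 6 lists. A single one was in the top 10% of all 3. It lay at chr1:188237497-188239275, 208 kb downstream of Tgfb2, the gene of a transforming growth factor, with percentiles of 93.3, 94.3 and 97.5. The nearest control peak was 10.05 kb away. Next in order was a region at chr2:122401990-122402871, 17.3 kb downstream of Gatm, which encodes an enzyme of creatine synthesis, with percentiles of 94.1, 89.8 and 98.6 and no control peak within 55.7 kb. A region at chr19:52912210-52913472 reached 99.6, 88.9 and 99.3, and its nearest control peak was 72.5 kb away. It lay 84.2 kb from AA387883 in a gap between genes of 658 kb. Peaks were also chosen in 4 other ways, which were the same number of peaks per list, the higher-scoring 50% of each list, the same covered length per list, and a cover of at least 50% of a region. These 3 regions were found under all 4, as were 45 of the 263 in all, whereas 12 were found under none. The first 3 of these ways keep the highest-scoring peaks of each list. Regions named for high scores are thus found under them by construction, which adds nothing to their percentiles.

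Control libraries had no peak at the regions by rule, yet had peaks around them about as often as around other intergenic regions. In the 10 kb on each side, 0.773%, 1.59% and 1.85% of bases were under peaks of stress libraries 1 to 3, and 0.891%, 1.49% and 0.716% under peaks of control libraries 1 to 3. These values were highest for the 3 longest lists, and the groups overlapped. Divided by the same value around all intergenic regions, the flanks stood at 0.913 ± 0.0166 in stress and 0.944 ± 0.119 in control (SD, n = 3 libraries each). Around the regions in all 6 lists the same quotient was 1.40 ± 0.126 and 1.66 ± 0.309. This quotient for the stress-only regions was below 1 in 5 of the 6 libraries and 1.05 in control library 1. The bodies of their nearest genes were covered 1.08 ± 0.0303 times as much as those of the genes nearest to all intergenic regions in stress and 1.07 ± 0.0384 times in control (SD, n = 3 each).

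**Figure D2:**
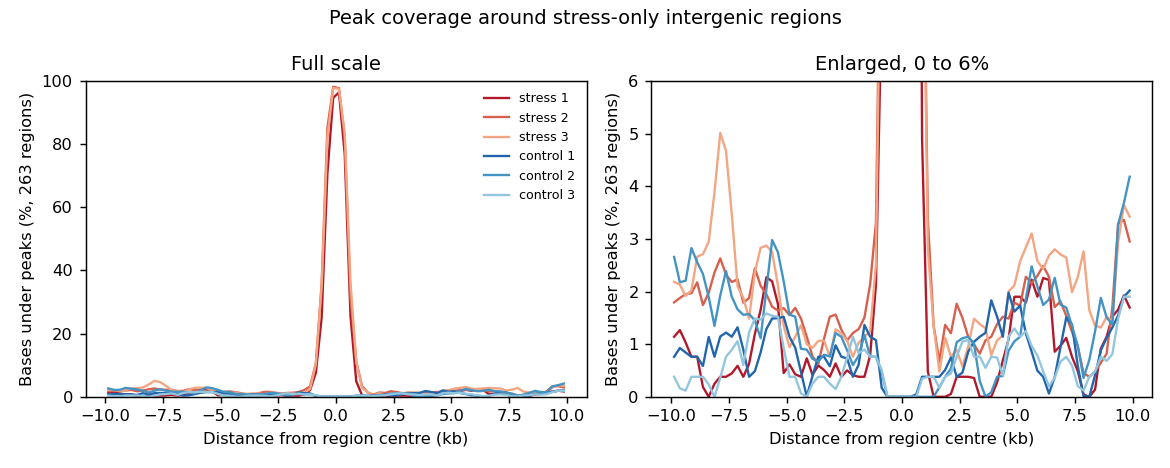
Percentage of bases under peaks (vertical axis) by distance from the centre of the 263 regions in kb (horizontal axis), 1 line per library, on the full scale and enlarged. The 3 stress lines rise to nearly 100% at the centre, where the rule requires a peak, and beyond the peaks all 6 lines stay within the enlarged scale, those of stress 2, stress 3 and control 2 mostly highest.

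Distances to control peaks were measured for the 263 regions only, so no share over all intergenic regions stands beside them. The nearest control peak was a median of 11.5 kb away, within 10 kb for 116 regions, within 5 kb for 64 and within 1 kb for 11. The closest was 38 bp away, a peak of control library 1 beside a region 221 kb upstream of Usp24, a ubiquitin-specific protease gene. A region 144 kb downstream of Fam107b had peaks of control libraries 2 and 3 at 110 and 104 bp. Others with a control peak within 1 kb lay near Gnaq, which encodes a G protein subunit, at 322 bp, and near the transcription factor gene Lef1 at 702 bp. At the other end, a region 240 kb upstream of the potassium channel interacting gene Kcnip4 had no control peak within 175 kb.

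The regions lay at a median of 24.7 kb (95% interval 19.6 to 33.7) from the nearest transcript, from 273 bp to 470 kb. All intergenic regions had a median of 33.0 kb (32.4 to 33.8), control-only ones 30.0 kb (21.3 to 54.7) and those in all 6 lists 31.1 kb (25.0 to 37.0). The intervals of all these sets overlap, and that of the 263 regions holds the median of all intergenic regions. Of the 263, 67 (25.5%) were under 10 kb, 149 (56.7%) from 10 to under 100 kb, and 47 (17.9%) at 100 kb or more. Among all intergenic regions 23.4% were under 10 kb and 23.0% at 100 kb or more. Distance is set partly by the annotation, and the median became 42.6 kb to the nearest start site and 53.7 kb to the nearest gene with at least 1 FPKM (fragments per transcript kilobase, scaled by depth). The nearest gene was downstream of 126 regions (47.9%), which then lay upstream of its start, and 137 lay past its end. The median gap between the flanking genes was 136 kb, against 177 kb for all intergenic regions.

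**Figure D3:**
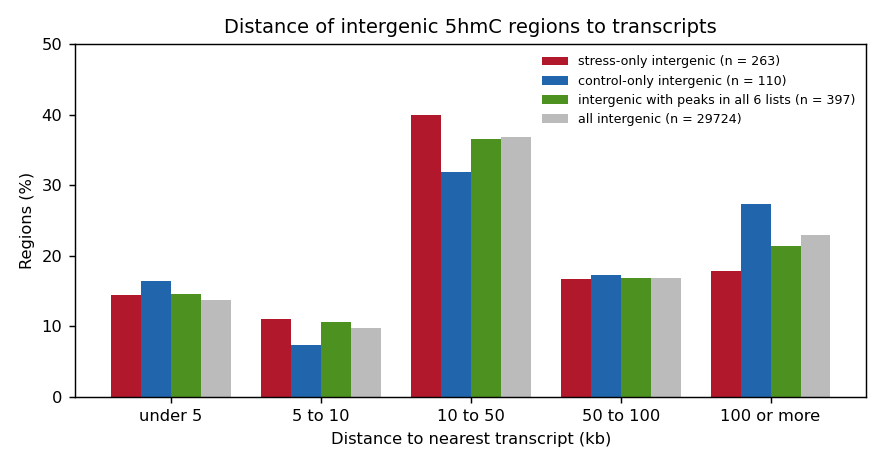
Percentage of regions (vertical axis) by distance to the nearest transcript in kb (horizontal axis) for 4 sets of intergenic regions. The bars of the 263 stress-only regions follow those of all intergenic regions, with 17.9% against 23.0% at 100 kb or more.

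Those just inside and just outside the limit of 1 kb from a start site show how the rule divides neighbours. The closest members lay 1265 bp from the start of Ino80, 1358 bp from Hmga1 and 1374 bp from Wwc1. Left out were stress-only regions 995 bp from the start of Med13l, 978 bp from Ikzf4 and 921 bp from Igfbp2, among 17 that lay outside gene bodies but within 1 kb of a start.

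Chromosome 5 held the largest number of regions, 27, which were 1.47% of its intergenic regions. Next by number were chromosome 1 with 26 (1.17%), chromosome 4 with 22 (1.20%) and chromosome 2 with 21 (0.946%). Chromosomes 7 and 19 had shares of 1.25% and 1.20% with 19 and 9 regions. The share over all chromosomes used was 0.885%. Chromosome 16 had the fewest, 4 (0.380%). The regions were mostly single. Only 8 had another member within 50 kb, and 257 genes were nearest to the 263 regions. Slc2a1, Hmgn2, Rplp1, Usp24, Mir6417 and AA387883 were each nearest to 2. In 11 gaps between genes there was more than 1 region. The gap of 1083 kb between Ppap2b and Usp24 held 3, and the gap of 602 kb between Prox1 and Rps6kc1 held 2. The closest pair in 1 gap lay near Rplp1, a ribosomal protein gene, and spanned 7.33 kb at chr9:61714461-61721787.

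Among the nearest genes were 4 of 84 on a list of developmental transcription factors, and 1.52% of the regions had such a gene nearest, against 1.44% of all intergenic regions. Neurod1 is a basic helix-loop-helix factor of neuronal differentiation, and its region at chr2:79368053-79369355, 71.3 kb upstream, was among the strongest, with percentiles of 94.0, 88.4 and 86.5. The nearest peaks of control libraries 1 to 3 were 8.442, 8.494 and 16.7 kb away. Prox1 is a homeobox factor that marks granule cells of the dentate gyrus. Its region at chr1:192280832-192282649 lay 286 kb upstream with percentiles of 90.7, 61.8 and 65.5, and a further region 467 kb upstream of Prox1 was nearer to Rps6kc1. Emx1 is a homeobox factor of the developing cortex and hippocampus, and its region at chr6:85114632-85115628 lay 22.3 kb upstream with percentiles of 84.1, 85.5 and 89.0. Nkx2-2 is a homeobox factor of ventral progenitors and oligodendrocyte precursors, and its region at chr2:147000197-147001885 lay 1.396 kb past the gene with percentiles of 78.6, 95.3 and 99.7. These 4 nearest regions were also found under all 4 other ways of choosing peaks, as were 45 of the 263 regions. The ways that shorten the lists by score keep high-scoring peaks, so this largely follows from the percentiles given.

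Genes of the response to stress hormones were nearest to 1 region. None of 30 glucocorticoid-induced genes and none of 40 immediate early genes, which neurons switch on within minutes of activity, was nearest to a region. These shares were low among all intergenic regions too, at 0.225% and 0.599%. Of 28 genes of stress hormone signalling, Nr3c1 was nearest to 1 region (0.380%, against 0.370% of all intergenic regions). Nr3c1 encodes the glucocorticoid receptor, and the region at chr18:39678393-39679542 lay 31.5 kb upstream of it. Its percentiles of 7.6, 46.1 and 40.6 were low, and of the 4 other ways of choosing peaks only the one that asked each library to cover at least 50% of a region found it.

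Ddit4 and Sgk1, which are glucocorticoid-induced, each flanked a region on its farther side. For farther neighbours, the share over all intergenic regions was not counted for any gene list. A region at chr10:59444196-59445771 lay 4.885 kb past the end of Anapc16 and 29.7 kb upstream of Ddit4, which encodes an inhibitor of mTOR signalling. Its percentiles were 2.5, 45.7 and 39.2. A region at chr10:21461343-21462919 lay 47.6 kb from Gm5420 and 139 kb upstream of Sgk1, the serum- and glucocorticoid-regulated kinase, with percentiles of 82.3, 23.7 and 61.7. Each of these regions was found under 1 of the 4 other ways of choosing peaks, the same one that found the region near Nr3c1. The immediate early gene Klf4 was the farther neighbour of a region 1000 kb away.

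Slc2a1 encodes the glucose transporter GLUT1 of the blood-brain barrier, and was nearest to a pair of regions. They lay 63.5 kb upstream at chr4:118716227-118717885 and 54.2 kb upstream at chr4:118726018-118727112. Percentiles were 8.1, 64.5 and 86.9 for the first and 15.0, 78.5 and 90.2 for the second, so stress library 1 had low-scoring peaks at both. The 4 endothelial markers, of which Slc2a1 is one, were nearest to 0.760% of the regions and 0.0673% of all intergenic regions, and this rests on the pair alone.

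**Figure D4:**
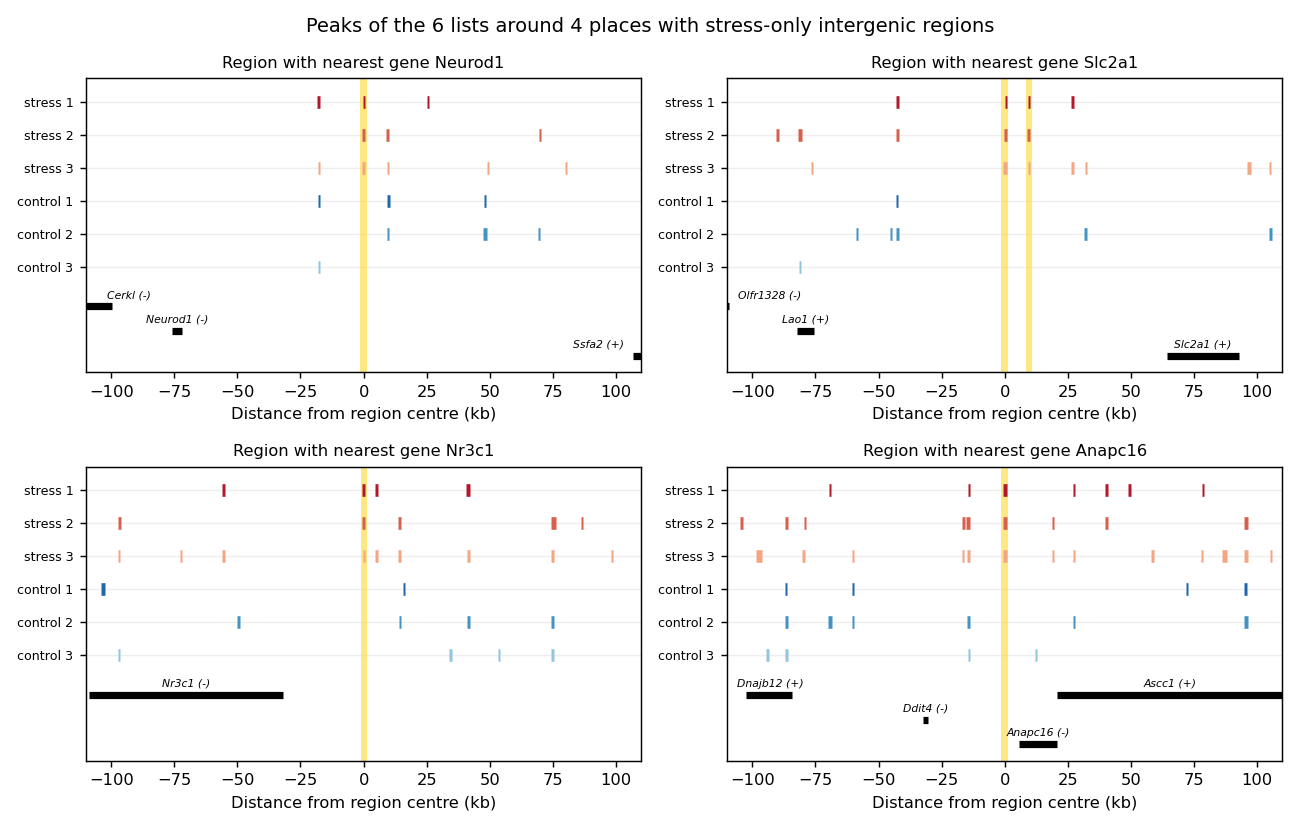
Peaks of the 6 lists (rows) by distance in kb from the centre of a stress-only intergenic region (horizontal axis), with transcripts in black and stress-only regions in yellow, at 4 places chosen after their values were seen. Control peaks are absent from the yellow bands and present on either side of them in all 4 panels.

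Epha4, an ephrin receptor of axon guidance, was the only one of 67 axon guidance and adhesion genes nearest to a region (0.380%, against 1.00% of all intergenic regions). That region, chr1:77344268-77345473, lay 18.3 kb past the gene with percentiles of 37.5, 90.5 and 81.9. No gene of 25 glutamate receptors, 21 GABA signalling genes, 45 voltage-gated channels, 30 presynaptic release genes, 36 plasticity and adhesion genes, 46 histone modifiers or 23 genes of methylation and 5hmC was nearest. Each of these lists was nearest to at most 0.343% of all intergenic regions. Grm4, which encodes a metabotropic glutamate receptor, was the farther neighbour of a region 50.2 kb away, and Nlgn1, which encodes a synaptic adhesion protein, of one 3123 kb away.

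The nearest genes were about as often expressed as those of other intergenic regions. A mean of at least 1 FPKM over both tables was reached by the nearest gene of 153 regions (58.2%, exact binomial 95% interval 52.0 to 64.2) and of 57.6% of all intergenic regions. For 87 regions both flanking genes reached it, and for 46 neither did. RNA differences are given as log2((stress + 1)/(control + 1)). Among the 149 nearest genes kept, the median was 0.087 (95% interval 0.046 to 0.118), against 0.083 for all 11071 genes kept and 0.092 for the nearest genes of all intergenic regions. Exactly 75 of the 149 lay above the median of all genes. Since all genes shifted by 0.083, the median of the nearest genes relative to them was 0.0040. By distance, the medians were 0.045 under 10 kb (36 genes), 0.075 from 10 to under 100 kb (84 genes) and 0.11 at 100 kb or more (30 genes), with overlapping intervals, and Hmgn2 counts in the first and the second of these. The genes on the farther side had a median of 0.085 (134 genes).

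At least 1.5-fold on this scale, 3 of the 149 nearest genes were higher in the stress table (2.01%, against 1.18% of all genes) and 1 was lower (0.671%, against 0.894%). Plekhf1, whose product associates with lysosomes, was listed at 0.976 FPKM in control and 3.10 in stress. Its region lay 4.535 kb past the gene, with percentiles of 23.3, 12.3 and 8.5. Slc2a1 was at 11.2 and 21.6 FPKM, and Lsm3, a gene of RNA splicing, at 2.23 and 4.12. Cstad, the lower one, was at 1.97 and 0.962 FPKM. Neurod1 was at 5.07 and 7.32 FPKM and Prox1 at 23.8 and 29.1, both higher in stress by less than 1.5-fold on this scale. Nr3c1 was at 8.58 and 7.17, Emx1 at 1.55 and 1.46, Nkx2-2 at 0.932 and 0.837 and Epha4 at 51.4 and 52.6 FPKM. Of the 134 farther neighbours kept, 4 were at least 1.5-fold higher (2.99%, against 1.18% of all genes) and none was lower (against 0.894%). They were Ddit4, at 17.4 and 34.2 FPKM, Sgk1, at 7.34 and 21.9, Klf4, at 0.945 and 2.33, and Spsb1, which encodes a SOCS box protein, at 2.18 and 4.19. Ddit4 and Sgk1 lay 29.7 and 139 kb from their regions, Klf4 1000 kb and Spsb1 111 kb.

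**Figure D5:**
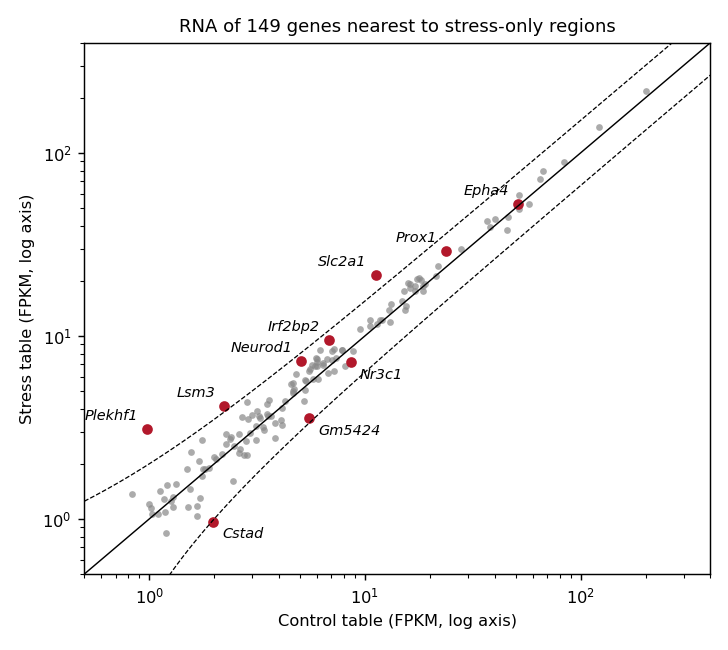
RNA of the 149 kept nearest genes in the control table (horizontal axis) and the stress table (vertical axis), both in FPKM on log axes, with a solid line at equal levels and dashed lines at 1.5-fold on the scale with 1 added. Plekhf1, Slc2a1 and Lsm3 lie above the upper line and Cstad below the lower one, and the named genes in red were chosen by list, rank or size of difference.

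In whole tissue, fewer cells of a type and less RNA per cell cannot be told apart. All markers of 11 cell type and region lists had a mean of at least 1 FPKM and none was at 0, those of excitatory neurons, dentate granule cells, CA1 and CA3 included. The 5 choroid plexus markers summed to 231 FPKM in control and 63.9 in stress, and all 5 were lower in stress. The 5 thalamic markers summed to 31.9 and 41.4, with Tcf7l2 lower in stress, at 5.02 and 4.82 FPKM, and the others higher. The 5 oligodendrocyte markers summed to 1295 and 1125, and all 5 were lower in stress. The 5 dentate markers, Prox1 among them, summed to 61.1 and 70.9, and all 5 were higher in stress. All astrocyte and all CA3 markers were higher too, summing to 365 and 417 and to 28.6 and 33.1 FPKM. The dentate marker Trpc6 had a log2 difference of 0.013, below the median of 0.083 of all genes kept. Markers of excitatory neurons, inhibitory neurons, CA1 and microglia went both ways. The endothelial markers other than Slc2a1, which are Cldn5, Flt1 and Pecam1, were lower in stress, at 9.80 and 5.77, 4.19 and 4.13, and 2.60 and 2.29 FPKM. DNA came from the same pools as RNA, and the part of tissue makeup in the regions or in the RNA of their neighbours was not tested.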

How the data were processed

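The authors deposited 1 peak list per 5hmC library, with a score per peak of at least 50, and 1 Cufflinks table per group with FPKM per transcript. Build mm9, Bowtie 0.12.9, TopHat 1.0.12, Cufflinks 2.1.1, Cuffdiff 2.1.1 and edgeR are named, per the submitters' processing notes. Peak names have the form MACS gives. Its version and any input library are not given in the sources used here. Other columns of the deposited tables were not used.

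Samples were grouped by titles and treatment tags. Each 5hmC library had about 25000000 to 35000000 uniquely mapped reads, per the labels' protocols, and the lists give no reads per library or per region.

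Here peaks were merged and placed with Python 3.11.15, numpy 2.4.6, pandas 2.3.3 and scipy 1.17.1. Scores were used only as ranks within a list. FPKM of isoforms were summed per gene, a pseudocount of 1 was added before log2, which understates changes of low genes, and genes whose mean over both tables reached 1 FPKM were kept (11071 of 23953). Intervals are 95% and cover counting error only. No test was made, because the rule used the stress and control contrast and RNA has 1 table per group. The steps were tested on simulated data.

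The regions and gene lists were chosen with earlier results of these data known. Regions were named by rank of score, length and distance, by genes with a pair of regions and by closeness to the limit, and genes by list or by rank of RNA difference among those with a transcript of at least 300 nt. Fam107b, Gnaq, Lef1, Kcnip4, Spsb1 and 2700038G22Rik were chosen after seeing their values. Alternatives were shorter lists, a cover of at least 50%, gaps up to 200 bp bridged, chromosome X, promoters of 2.5 kb, bodies extended by 5 kb, each library left out, other definitions of the nearest gene, and for RNA a pseudocount of 0.1, no filter, centring and the most abundant isoform. The same covered length per list was added after seeing the data.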

Additional observations from a re-analysis of the deposited data

How the results depend on the processing

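The number of stress-only intergenic regions, 263, was 160 with the same number of peaks per list, 124 with the higher-scoring 50% of each list and 117 with the same covered length, and 344 to 1320 with 1 library left out. Of the 263, 109, 62 and 77 were found again under the first 3 settings, and 240 with a cover of at least 50%. Their share of intergenic regions was 0.590% with the same covered length and 1.26% to 4.67% with 1 library left out. Median length was 1303.5, 1346 and 1336 bp with the same number of peaks, the higher-scoring 50% and the same covered length, and 1127 to 1279 bp with 1 library left out. Stress-only regions were 2.39 times as many as control-only ones, and 1.55, 2.70 and 0.921 times under those settings. This ratio ranged from 0.728 to 9.23 with 1 library left out. Median distance was 35.25 kb with gene bodies extended by 5 kb, 53.7 kb to the nearest gene of at least 1 FPKM and 42.6 kb to the nearest start, and 24.3 to 29.4 kb with 1 library left out. The RNA median of the nearest genes was 0.017 with no filter on low values and 0.0040 centred on all genes, and 0.079 to 0.102 with 1 library left out. The number of nearest genes at least 1.5-fold higher was 6 for the most abundant isoform and 6 with 0.1 as pseudocount, and 3 were lower in each. The share of all genes was not counted under these settings, so the rise in calls cannot be read as particular to the nearest genes. Shorter lists drop peaks that make a region and also peaks that exclude one. Control-only regions rose from 110 to 127 with the same covered length. Leaving out a library lowers the number of lists that its own group must supply, so the ratio then compares uneven rules. Other causes were not tested. No paired analysis was possible because the results come from no test in which a block could stand, and the labels number the libraries of both groups without saying that equal numbers share animals or a batch. The lists give no reads per region, so the depth behind an absent peak is unknown.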
